A study of Mus musculus with 2 samples.

Results

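The Mir148 and Mir152 family of the mouse consists of Mir148a, Mir148b and Mir152, paralogous microRNA genes whose guide strands carry the same seed. The 3 genes were taken by symbol from the 2202 genes counted, here called microRNA genes. Snord43, which is among them, has the symbol of a small nucleolar RNA. Small RNA under 30 nt from total RNA of gastrocnemius, the main calf muscle, was sequenced in 14-day-old female B6CASTF1/J mice, the F1 generation of C57BL/6J and CAST/EiJ. There was 1 group of 2 biological replicates, with no treatment, other tissue or other age, so the levels are described and no groups are compared. The biosample of replicate 1 is named for 3 females. That of replicate 2 was taken as 1 female, the value also used where a label gave no number of females. The labels do not state whether animals were pooled. The replicates also share a donor identifier, so the spread between them may be partly technical.

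A microRNA guides the silencing complex to messenger RNAs that pair with its seed, bases 2 to 8 from the 5′ end, and lowers their translation and stability. Paralogs that share a seed can therefore recognise overlapping sets of targets. Human members of the family are known to repress the maintenance DNA methyltransferase DNMT1. In mouse myoblasts, miR-148a is known to promote differentiation by repressing Rock1, a kinase of the actin cytoskeleton. Outside muscle, miR-148a is abundant in liver, where it represses the LDL receptor.

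The guide strands are shown first because their likeness decides whether reads of the 3 genes can be told apart. All 3 genes were found in the RefSeq microRNA table (build GRCm38.p6), and their RefSeq hairpins were identical to those of the GENCODE M21 annotation used for counting. Capitals mark the seed.
miR-148a-3p: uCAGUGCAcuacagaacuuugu
miR-148b-3p: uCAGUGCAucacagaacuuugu
miR-152-3p: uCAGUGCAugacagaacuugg

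The seed CAGUGCA was carried by these 3 strands and by no other of the 1738 mature strands in the table. Differences lay outside the seed. Counted from 1 at the 5′ end, miR-148a-3p and miR-148b-3p differed by C9U and U10C, with the miR-148a-3p base given first. Between miR-148b-3p and miR-152-3p, the substitutions were C10G and U20G. miR-148a-3p differed from miR-152-3p by C9U, U10G and U20G over the 21 bases compared.

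The opposite arms were less alike. Of these, the 5p strands of Mir148a and Mir148b shared the seed AAGUUCU, while that of Mir152 had AGGUUCU, which no other gene in the table carried. Capitals again mark the seed. The deposited count of each gene pools both arms, so the values below do not separate the guide strand from the 5p strand.
miR-148a-5p: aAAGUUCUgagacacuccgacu
miR-148b-5p: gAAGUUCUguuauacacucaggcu
miR-152-5p: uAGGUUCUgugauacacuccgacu

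The hairpins show where the guide strand, here in capitals, sits in each precursor.
Mir148a hairpin: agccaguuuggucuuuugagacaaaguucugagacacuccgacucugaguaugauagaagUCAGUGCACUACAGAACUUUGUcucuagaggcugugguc
Mir148b hairpin: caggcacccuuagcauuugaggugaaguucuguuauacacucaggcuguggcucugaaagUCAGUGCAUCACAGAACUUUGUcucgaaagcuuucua
Mir152 hairpin: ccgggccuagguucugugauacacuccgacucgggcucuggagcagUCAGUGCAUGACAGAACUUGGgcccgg

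In a global alignment the hairpins of Mir148a and Mir148b were identical at 71 of 103 aligned positions (68.9%). Mir148a and Mir152 were identical at 58.4% of positions, and Mir148b and Mir152 at 59.6%. The Mir152 hairpin was the shortest, at 73 nt against 99 nt for Mir148a and 97 nt for Mir148b, and had a GC content of 61.6%, against 45.5% for Mir148a and 45.4% for Mir148b. The longest stretch shared with any of the other 2201 annotated hairpins was 15 nt for Mir148a and Mir148b, which shared it with each other, and 12 nt for Mir152. No member shared 18 nt or more with another hairpin, and each guide strand had at least 2 mismatches to every other hairpin on either strand. A read of 18 nt or more from a member therefore fits no other annotated hairpin exactly, although the rest of the genome was not searched.

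The 3 genes lie on different chromosomes (mm10 coordinates). Mir152 lies at chr11:96850393-96850465 on the plus strand, within an intron of Copz2, and 3 of the 5 annotated Copz2 transcripts span it. Mir148b lies at chr15:103285125-103285221 on the plus strand, within introns of all 4 annotated Copz1 transcripts. Copz1 and Copz2 are themselves paralogs and encode zeta subunits of the COPI coat, which forms vesicles at the Golgi. Mir148a, at chr6:51269812-51269910 on the minus strand, overlapped no other gene, and its nearest neighbour was the long noncoding gene Gm32479 at 13622 bp. None stood in a microRNA cluster. The nearest other microRNA gene was 65234 bp from Mir148b (Mir6963), 213303 bp from Mir152 (Mir8103) and 351722 bp from Mir148a (Gm22914), and these neighbours had at most 1 read in a library.

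Levels are in CPM, the reads assigned to a gene on its own strand scaled so that the microRNA genes of each library have the same total. Replicate 2 had 4292012 assigned reads (35.4% of the library) and replicate 1 had 2672454 (33.4%), so that 1 read was worth 0.233 CPM in replicate 2 and 0.374 CPM in replicate 1. Reads aligned to several places made up 52.4% of replicate 2 and 52.7% of replicate 1. The muscle label was checked against 9 striated muscle microRNAs, of which 8 reached 1 CPM in both replicates. They summed to 8.59% of assigned reads in replicate 2 and 9.63% in replicate 1, nearly all from Mir206. The Mir1a, Mir133 and Mir486 genes among them share 18 nt or more with another hairpin, so their counts may be too low. All counting intervals are exact 95% intervals and cover counting error only.

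All 3 members reached 1 CPM in both replicates, as did 16.7% of all microRNA genes. Mir152 was the highest, Mir148a lay between, and Mir148b was the lowest. The sum of the 3 genes was 895 CPM in replicate 2 and 785 CPM in replicate 1. The mean was 840 ± 78.0 CPM (SD, n = 2), which is 0.0840% ± 0.00780 of assigned reads. RNA came from whole tissue, so fewer cells of a type and less RNA per cell cannot be told apart.

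Mir152 had 562 CPM in replicate 2, from 2411 reads, and 489 CPM in replicate 1, from 1307 reads. The mean was 525 ± 51.4 CPM (SD, n = 2), which placed the Copz2-hosted gene at rank 101 of 2202. Of the 367 genes that reached 1 CPM in both replicates, here called expressed, 72.5% had a lower mean.

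Mir148a, the intergenic member, had 263 CPM in replicate 2, from 1127 reads, and 218 CPM in replicate 1, from 583 reads. Its mean was 240 ± 31.4 CPM (SD, n = 2), at rank 130. Its highest value lay below the lowest value of Mir152.

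Mir148b, hosted by Copz1, had 70.6 CPM in replicate 2, from 303 reads, and 77.5 CPM in replicate 1, from 207 reads. With a mean of 74.0 ± 4.85 CPM (SD, n = 2), it stood at rank 189, close to the median of 81.5 CPM over the 367 expressed genes. The replicate values of the 3 genes did not overlap, so the order Mir152, Mir148a, Mir148b was the same in both libraries.

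**Figure D1:**
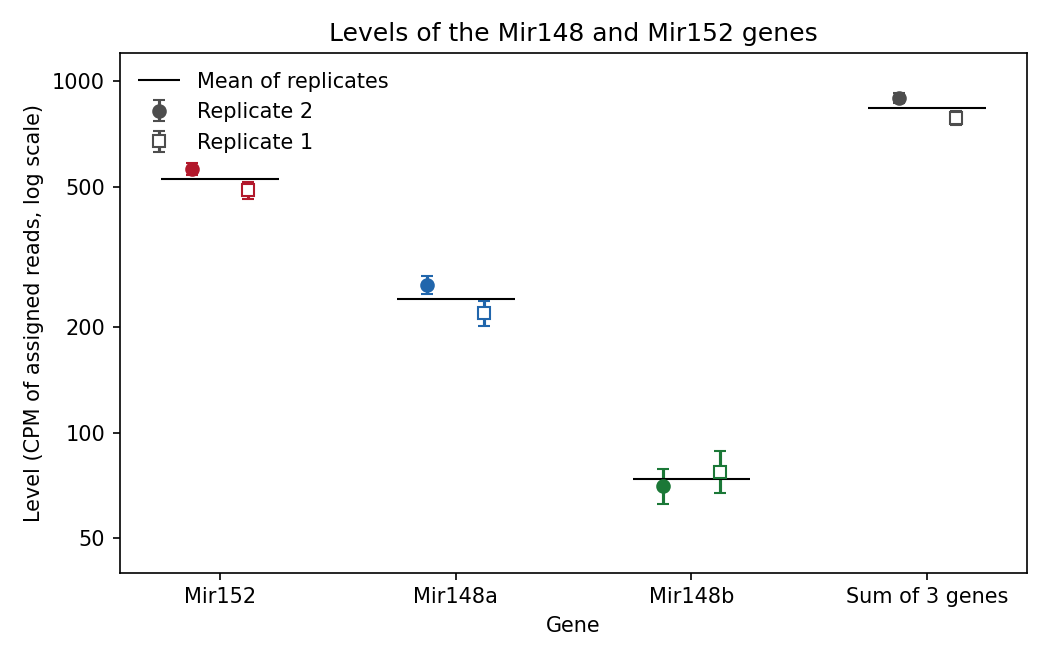
Levels of Mir152, Mir148a, Mir148b and their sum in CPM of assigned reads, on a log axis. Filled circles are replicate 2, open squares replicate 1, bars exact 95% counting intervals and horizontal lines the mean of both replicates; the genes keep the same order in both libraries, with means of 525, 240 and 74.0 CPM.

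Ratios between the members do not depend on library size. Mir152 exceeded Mir148a 2.14-fold in replicate 2 (95% counting interval 1.99 to 2.30) and 2.24-fold in replicate 1 (2.03 to 2.48). Mir148a exceeded Mir148b 3.72-fold in replicate 2 (3.27 to 4.24) and 2.82-fold in replicate 1 (2.40 to 3.32). The first ratio thus varied less between the libraries than the second, whose intervals overlapped only at their ends.

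Mir152 supplied most reads of the family, at 62.8% in replicate 2 and 62.3% in replicate 1. Mir148a held 29.3% of the family's reads in replicate 2 and 27.8% in replicate 1. Mir148b held 7.89% in replicate 2 (7.06 to 8.79) and 9.87% in replicate 1 (8.63 to 11.2), and these intervals overlapped. As means, the shares were 62.5% ± 0.313 for Mir152, 28.6% ± 1.09 for Mir148a and 8.88% ± 1.40 for Mir148b (SD, n = 2 each). The plot of family composition shows nearly the same division in both libraries.

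**Figure D2:**
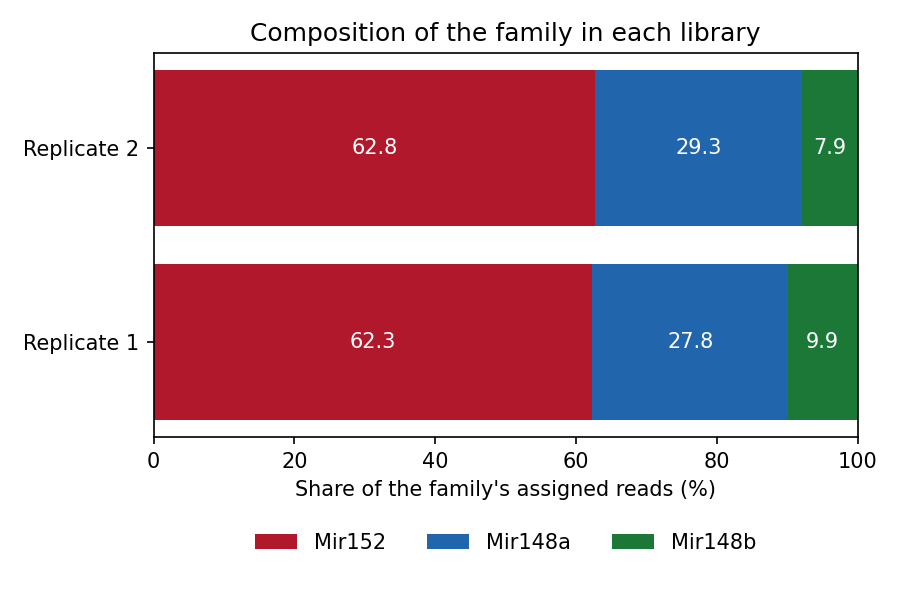
Share of the family's assigned reads held by each gene, in percent, with 1 bar per library. Mir152 takes 62.8% in replicate 2 and 62.3% in replicate 1, and Mir148b the smallest part, 7.89% in replicate 2 and 9.87% in replicate 1.

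A microRNA read spans about 1 mature strand whatever the length of the hairpin, and the guide strands of Mir148a and Mir148b (22 nt) and Mir152 (21 nt) were nearly equal in length. When counts were divided by hairpin length and scaled to the same total as CPM, the level per length was 551 ± 54.3 for Mir152, 186 ± 24.4 for Mir148a and 58.4 ± 3.78 for Mir148b (SD, n = 2 each). The order was the same on this scale, and the share of Mir152 in the family was 69.3% ± 0.30.

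Between the replicates, the members differed by about 1.2-fold at most. Mir148a was 1.204-fold higher in replicate 2 than in replicate 1 (95% counting interval 1.09 to 1.33) and Mir152 1.15-fold higher (1.07 to 1.23). For Mir148b the ratio of replicate 2 over replicate 1 was 0.911, and its interval, 0.761 to 1.09, included 1. With 1 library on each side these ratios compare libraries and have no replicate check.

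Intervals that exclude 1 were common across the table. Among 176 genes whose mean was at least 100 CPM, a limit that Mir152 and Mir148a passed and Mir148b did not, the interval excluded 1 for 73.9% and lay above 1 for 39.2%, and the ratio was past 1.5-fold in either direction for 7.95%. A limit of 50 CPM, set after the values were seen, takes in all 3 members and leaves 202 genes. The interval excluded 1 for 69.3% of these genes and lay above 1 for 36.1%, and their median difference between the replicates was 1.12-fold. A smaller fold than that of Mir148a was found for 140 of the 202 genes, than that of Mir152 for 115, and than that of Mir148b for 79. No member passed 1.5-fold, as did 7.92% of the 202 genes.

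**Figure D3:**
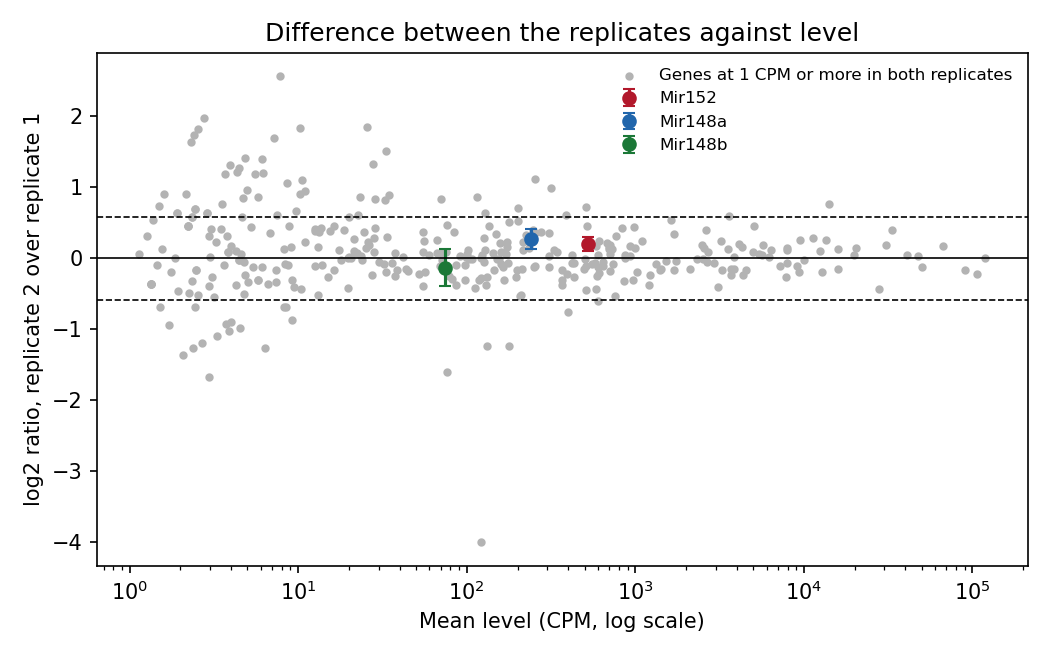
The log2 ratio of replicate 2 over replicate 1 against mean CPM on a log axis for the 367 expressed genes (grey). The members are in colour with 95% counting intervals and dashed lines mark 1.5-fold in either direction; Mir148a (0.27) and Mir152 (0.20) lie above 0, Mir148b (-0.13) has an interval that crosses 0, and all 3 lie between the dashed lines.

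Markers of other cell types also differed between the libraries. The 4 hepatocyte markers, of which 3 reached 1 CPM in both replicates, summed to 52.2 CPM in replicate 2 and 266 CPM in replicate 1. That difference lay in Mir122, the defining hepatocyte microRNA, which stood at 14.2 CPM in replicate 2, against 229 CPM in replicate 1. Mir192 (23.8 CPM in replicate 2, 24.3 CPM in replicate 1) and Mir194-2 (13.7 CPM in replicate 2, 12.3 CPM in replicate 1) had ratios of 0.977 and 1.11, with intervals that included 1.

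The 2 erythroid markers, both expressed, summed to 185 CPM in replicate 2 and 437 CPM in replicate 1. For the 6 leukocyte markers, all expressed, the sums were 2220 CPM in replicate 2 and 2729 CPM in replicate 1. Of these, 4 had an interval of the replicate ratio below 1. For the other 2, Mir342 (ratio 1.00) and Mir223 (1.03), the interval included 1. The endothelial marker Mir126a stood at 11.9% of reads in both, and the 6 fibroblast and smooth muscle markers, of which 5 were expressed and Mir199a-1 had no read, summed to 2.96% in replicate 2 and 2.91% in replicate 1. The part of these cell types in the levels of the 3 genes was not tested.

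By mean CPM the nearest genes to each member, 2 above and 2 below, could not be separated from it beyond the replicate spread. Around Mir152 were Mir16-1 (573 ± 20.5 CPM), Mir20a (550 ± 21.4), Mir134 (517 ± 112) and Mirlet7c-2 (509 ± 112). Mir148a had Mir500 (249 ± 14.7) and Mir499 (246 ± 47.3) above it and Mir503 (233 ± 16.5) and Mir34a (225 ± 35.4) below it. Next to Mir148b were Snord43 (76.5 ± 54.8), Mir130b (74.9 ± 3.20), Mir350 (71.6 ± 0.817) and Mir138-1 (70.2 ± 27.9), with SD over 2 replicates throughout. The replicate values of each of these 12 genes overlapped those of the member beside it. Mir16-1, Mirlet7c-2 and Mir138-1 share 18 nt or more with another hairpin, so that reads in those stretches may be missing from their counts.

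Likeness in the replicate ratio was measured as the smallest difference in log2 ratio over 2 samples, among 174 other genes whose mean was at least 100 CPM. The nearest gene was Mir487b for Mir148a (log2 ratio 0.26 against 0.27 for the member), Mir483 for Mir152 (0.20 for both) and Mirlet7g for Mir148b (-0.13 for both). These genes had means of 13449 CPM (Mir487b), 4149 CPM (Mir483) and 50174 CPM (Mirlet7g), far from the levels of the members. A ratio over 2 libraries is a weak measure of likeness.

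Another microRNA family reads nearly the same seed at an offset. Bases 3 to 8 of the Mir148 and Mir152 guide strands, AGUGCA, are bases 2 to 7 of 7 other mature strands in the table. These belong to Mir130a, Mir130b, Mir130c, Mir301, Mir721, Mir6341 and Mir6389, and strands missing from the RefSeq table were not searched. The 3p strands of the 3 genes with reads are shown with the shared 6 bases in capitals, and their counts pool both arms too. They were chosen after sequences and values had been seen.
miR-130a-3p: cAGUGCAauguuaaaagggcau
miR-301a-3p: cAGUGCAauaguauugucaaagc
miR-130b-3p: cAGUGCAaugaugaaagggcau

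Mir130a had 2660 ± 72.2 CPM, Mir301 639 ± 18.2 CPM and Mir130b 74.9 ± 3.20 CPM (SD, n = 2 each), while the other 4 genes had no read. A count of 0 allows up to 0.699 CPM in replicate 2 and 1.12 CPM in replicate 1. The sum of the 7 genes was 3.70 times that of the Mir148 and Mir152 family in replicate 2 and 4.38 times in replicate 1. All 3 expressed genes of this group had intervals of the replicate ratio that included 1 or lay below it, with ratios of 0.962, 0.960 and 1.06 for Mir130a, Mir301 and Mir130b.

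Against a list of 29 microRNAs linked to muscle differentiation, the members stood in the middle. Of these, 28 reached 1 CPM in both replicates, 6 had a higher mean than Mir152 and 12 a lower mean than Mir148b. The list was led by Mir378a (106759 ± 11740 CPM), of the Ppargc1b locus, and Mir206 (89900 ± 7361 CPM), which is largely restricted to skeletal muscle. Mir322 (9510 ± 1184 CPM), which promotes cell cycle exit of myoblasts, and Mir27b (4341 ± 509 CPM), which represses Pax3, came next.

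Mir152 fell between Mir486 (591 ± 74.3 CPM), of the Ank1 locus, and Mir155 (401 ± 145 CPM), best known from activated leukocytes. The values of Mir152 overlapped those of Mir486, at 538 and 643 CPM in replicates 2 and 1, and also those of Mir155, at 298 and 503 CPM. Mir148a lay between Mir499, hosted by the myosin gene Myh7b, and Mir503, the neighbour of Mir322, as given above. Mir148b lay between Mir221 (81.5 ± 11.8 CPM), which represses the cell cycle inhibitor p27, and Mir26a-2 (56.9 ± 5.30 CPM), whose mature strand represses Ezh2. It overlapped Mir221 and not Mir26a-2.

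Of the 28 expressed list genes, 5 had an interval above 1 and 10 an interval below 1, with a median ratio of replicate 2 over replicate 1 of 1.03. Over all 367 expressed genes the interval lay above 1 for 26.2% and below 1 for 19.1%, with a median of 1.03. On the list, 19 of 29 genes share 18 nt or more with another hairpin, so their counts may be too low, unlike those of the 3 members on this measure.

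**Figure D4:**
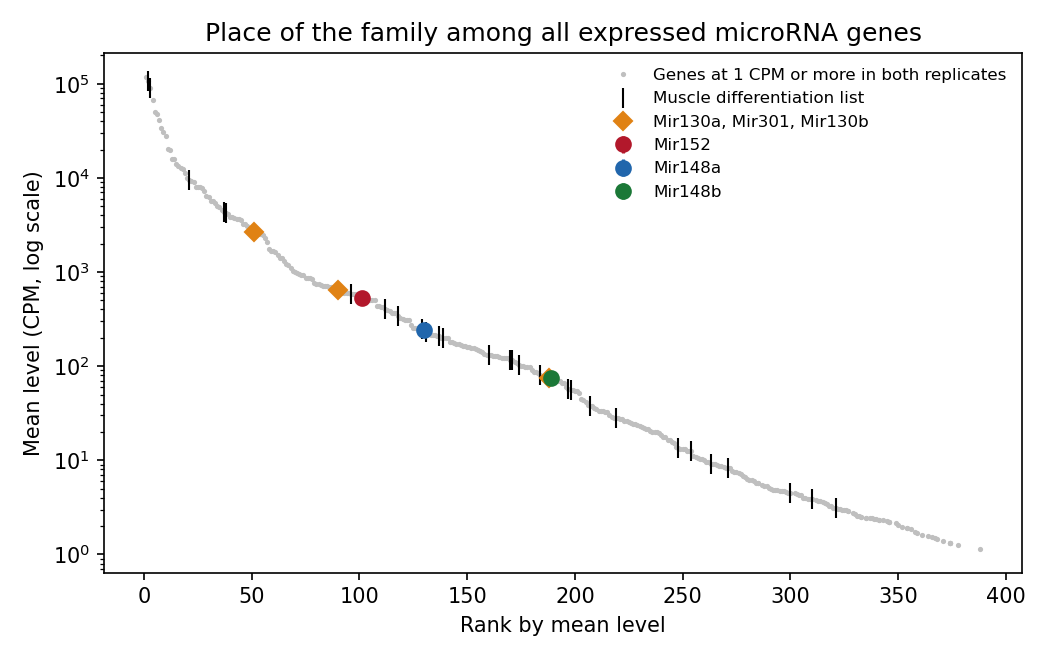
Mean CPM on a log axis against rank by mean CPM for the 367 expressed genes (grey). Coloured circles are Mir152 (rank 101), Mir148a (130) and Mir148b (189) with bars to the higher and lower replicate, most of them smaller than the symbol. Diamonds are Mir130a, Mir301 and Mir130b and ticks the muscle differentiation list.

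Set beside other families with several paralogs, the Mir148 and Mir152 family had a lower sum than the Mir26 and Mir30 families. Its sum was higher than that of the Mir29 family. The Mir26 family, whose genes lie in a set of paralogous hosts, summed to 20438 ± 1374 CPM, of which Mir26b held 99.7% ± 0.0453. In the Mir148 and Mir152 family only Mir148b and Mir152 have such hosts. Reads of the Mir30 family summed to 21102 ± 1786 CPM, with 47.3% ± 3.31 from Mir30d. The Mir29 family was lower, at 566 ± 36.1 CPM, with 74.5% ± 2.05 from Mir29a (SD, n = 2 each).

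The sums of the Mir29 family, 541 CPM in replicate 2 and 592 CPM in replicate 1, lay below those of the Mir148 and Mir152 family in both libraries. Mir26a-1 and Mir26a-2, 3 of 4 Mir29 genes and 5 of 6 Mir30 genes share 18 nt or more with another hairpin, so the sums and divisions of those families leave out shared reads, and no test of the difference was made.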

How the data were processed

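Small RNA libraries of 2 replicates were analysed as the raw read counts per microRNA gene that the authors deposited, made on mm10 with GENCODE M21, per the text files deposited beside them. Which aligner and counter made them is not given in the sources used here. Each file has 3 count columns, read from their order as unstranded, same strand and opposite strand, and the same-strand column was used. The 4 lines that name no gene, with 64.6% of the reads of replicate 2 and 66.6% of those of replicate 1, were left out of totals. All 2202 gene identifiers matched GENCODE M21.

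CPM is the count divided by the column total over genes. Shares have Clopper-Pearson intervals and replicate ratios exact conditional binomial intervals, at 95%. The limit for a count of 0 was 3 reads. With 1 group no test was made. Over genes averaging at least 100 CPM, the chi-square of the counts between replicates was 211 per degree of freedom, so the files are not random draws from 1 library. Interval coverage was tested on simulated counts that held counting error only. That test cannot show how well the intervals cover the spread between these replicates.

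Named genes were the members, the 2 genes above and below each in mean CPM, the gene nearest in replicate ratio, hosts and neighbours, the highest genes of the comparison families, and the top 4 and adjoining genes of the muscle list. The members, lists and rules were chosen with earlier results of these data known. Alternatives covered the strand column, edgeR 4.0.16 TMM factors and DESeq2 1.42.0 size factors (R 4.3.3), denominators, hairpin length, each replicate alone and background limits. Python 3.11.15, numpy 2.4.6, pandas 2.3.3 and scipy 1.17.1 were used.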

Additional observations from a re-analysis of the deposited data

How the results depend on the processing

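No paired analysis was possible because there was 1 group. Apart from each replicate alone, 62 alternative values were computed, of which 40 were labelled the same and 22 moved. A level or share was the same if it moved by less than the replicate SD. For a replicate ratio the direction and the side of 1 of its interval had to be kept, with no limit on its size. Background counts had to change by no more than 1.5 times, whatever the number of genes they came from. Labels of background counts therefore do not show whether a share was kept. Every alternative for the levels kept the order Mir152, Mir148a, Mir148b, but none could readily have changed it. Each scaling multiplies all genes of a library by the same factor, and unstranded counts of the members differed by at most 1 read. Division by hairpin length favours Mir152, the shortest, and the other hairpins are nearly equal in length. The replicate ratio of each member and of the sum kept its direction and its side of 1 under every scaling and the unstranded column. TMM and DESeq2 factors left the levels of all 3 genes within 1 SD of the reported mean. Both were scaled to keep the geometric mean of the library totals. They could hardly move a mean of 2 replicates, so that shows little about stability either. Each replicate alone lies within 1 SD by arithmetic when there are 2, so that shows nothing about stability. The denominator sets the scale of a level by construction. With all reads of the library as denominator, Mir152, Mir148a, Mir148b and their sum had 181, 82.9, 25.4 and 289 CPM. Without the 10 most abundant genes in the total, the same values were 1359, 621, 192 and 2172. In the unstranded column, whose total leaves out reads that overlap genes on both strands, they were 707, 323, 99.7 and 1129 CPM. Division by hairpin length gave 186 for Mir148a and 58.4 for Mir148b on the CPM scale, and family shares of 69.3% for Mir152, 23.3% for Mir148a and 7.40% for Mir148b. The 14 genes past 1.5-fold among those at 100 CPM became 55 past 1.2-fold and 4 past 2-fold. With every gene that had a read in both replicates the count was 180 of 496, and at 1000 CPM or more it was 2 of 69. The interval excluded 1 for 63 of 69 genes at 1000 CPM, for 130 of 176 at 100 CPM and for 169 of 496 with a read in both replicates. Depth limits Mir148b most: with 303 and 207 reads in replicates 2 and 1, the counting interval of its ratio ran from 0.761 to 1.09.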
